A study of Mus musculus with 2 samples.

Results

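The clustered replication-dependent histone genes were examined in total RNA of embryonic mouse heart. Members were the protein-coding genes of the GENCODE M21 annotation (GRCm38, the assembly of mm10) whose symbol begins with Hist1h, Hist2h, Hist3h or Hist4h, matched by gene identifier without version to both gene tables. Of 67 such genes, 64 were found, among 21474 protein-coding genes and 43346 Ensembl genes listed. Hist1h2bh, Hist1h2bm and Hist2h2bb, all of type H2B by symbol, were not found under their identifiers and were not analysed here. The samples formed 1 group of 2 libraries, replicate 1 and replicate 2, made from hearts of B6NCrl mice at embryonic day 13.5 with male and female embryos pooled. Both tissue samples stand under one donor entry, the input was 10 ng of RNA longer than 200 nt with spike-in RNA added, and the numbers are given as biological replicates. There was no second condition. Values are therefore given per library and as mean ± SD (n = 2), no difference between conditions was tested, and ratios between the libraries are of replicate 1 over replicate 2.

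Histone proteins package DNA into nucleosomes, each made of H2A, H2B, H3 and H4, while H1 binds the linker DNA between them. The clustered genes are known to be transcribed mainly during S phase, and their mRNAs are the metazoan mRNAs known to end in a conserved stem-loop in place of a poly(A) tail. The stem-loop binding protein SLBP and the U7 small nuclear ribonucleoprotein direct the cut behind that stem-loop. Some of the genes also carry longer, polyadenylated forms.

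The stem-loop was searched by the histone stem-loop consensus, coding strand only, in the 200 bases after the stop codon of the reference transcripts. It was present in 44 of the 50 members whose model holds at least 16 bases after the stop codon, which is 88%, and in 7 of 20915 other protein-coding genes, which is 0.0335%. In windows of 100 and 1000 bases the 44 members stayed, and the other genes numbered 4 and 14. Of those 7, Hist1h2bh and Hist1h2bm are clustered histone genes without an entry in the tables and H2afx is the H2A.X gene. The stem-loop began 21 to 58 bases after the stop codon, with a median of 31.5. The stem-loops of the leading members and of the main sequence variants are shown with the 14 bases before them, since they are the feature that the members share (GENCODE M21 transcripts, GRCm38, 5′ to 3′, stem-loop in capitals).
Hist1h2ap, H2A, chr13:21833029-21833058, minus strand: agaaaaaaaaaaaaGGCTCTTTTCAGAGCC
Hist1h2ae, H2A, chr13:23570668-23570697, minus strand: gtaaaaaaaacaaaGGCTCTTTTCAGAGCC
Hist3h2a, H2A, chr11:58955158-58955187, plus strand: ttacagacaccaaaGGCTCTTTTCAGAGCC
Hist2h2ac, H2A, chr3:96220418-96220447, minus strand: cacgaatccaaaaaGGCTCTTTTTAGAGCC
Hist1h2bk, H2B, chr13:22036286-22036315, plus strand: cgtctagcaccaaaGGCTCTTTTAAGAGCC
Hist1h3d, H3, chr13:23576230-23576259, plus strand: atttggaccccaaaGGCTCTTTTCAGAGCC
Hist1h3g, H3, chr13:23535875-23535904, plus strand: acaaccactttaaaGGCTCTTCTTAGAGCC
Hist1h4d, H4, chr13:23581936-23581965, plus strand: acccaaaaaccaaaGGCCCTTTTCAGGGCC
Hist1h4b, H4, chr13:23757352-23757381, plus strand: taactgttacaaaaGGTCCTTTTCAGGACC
Hist1h1c, H1, chr13:23739498-23739527, plus strand: ctaacaatccaaaaGGCTCTTTTCAGAGCC

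The form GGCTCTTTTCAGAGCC was found in 24 members of types H1, H2A, H2B and H3, and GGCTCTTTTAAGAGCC in 6 members of types H1, H2B and H3. The 12 H4 genes with a match used 4 other forms, of which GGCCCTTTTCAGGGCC was found in 7 members. Hist1h2ap differed from the other members listed by a run of 12 A directly before the stem-loop. Only its near-identical copy Hist1h2ao had the same run, and the longest run in the 30 bases before the stem-loop was 2 to 8 A in the other 42 members with a match.

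The members were measured over a range from 0 to above 1000 TPM (a transcript level per length, whose total is fixed in every library). The libraries held 36733400 reads in replicate 1 and 36060765 reads in replicate 2, and the members took 24785 and 25434 estimated reads in replicate 1 and replicate 2. The members summed to 1973 TPM in replicate 1 and 2154 TPM in replicate 2, or 2064 ± 128 TPM, about 0.197% and 0.215% of all TPM. At least 1 TPM in both libraries was reached by 44 of 64 members, or 68.8%, beside 57.3% of all protein-coding genes. The order was the reverse at a minimum of 5 TPM, which 31.3% of members and 43.8% of protein-coding genes reached. The median member stood at 2.91 TPM and the median protein-coding gene at 3.07 TPM. In bulk tissue, the share of cells in S phase, histone mRNA per cell and its uptake into the libraries cannot be told apart. The level was concentrated: Hist1h2ap held 68.7% of the member sum in replicate 1 and 66.7% in replicate 2, and the 10 leading genes held 90.9% and 90.7%.

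**Figure D1:**
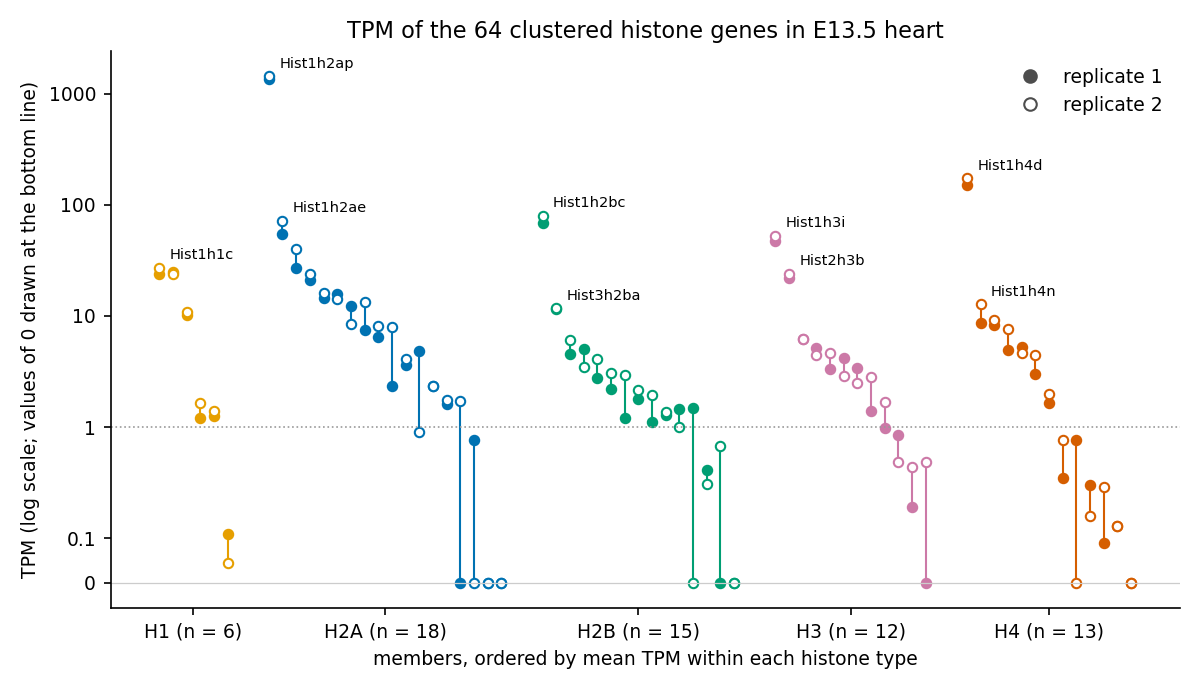
TPM (log axis) of every member in replicate 1 (filled) and replicate 2 (open), ordered within histone type; values of 0 are drawn at the bottom line and the dotted line marks 1 TPM. In each of H2A, H2B, H3 and H4 a single gene stands above the rest of its type in both libraries, and Hist1h2ap stands above 1000 TPM.

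Among the 18 H2A genes, Hist1h2ap (H2A, chr13, cluster Hist1) had 1355 TPM in replicate 1 and 1437 TPM in replicate 2, from 15200 and 15080 estimated reads. Hist1h2ae followed with 54.7 TPM in replicate 1 and 71.7 TPM in replicate 2. Hist2h2aa2 had 26.9 TPM in replicate 1 and 40.2 TPM in replicate 2. Hist1h2ap was above the next H2A gene by far more than the spread between the libraries, and its deposited interval did not overlap that of any other member. That interval ran from 1303 to 1348 TPM in replicate 1 and from 1381 to 1429 TPM in replicate 2, and lies around a deposited posterior mean that is below the TPM itself. Hist2h2aa2 and Hist3h2a were not separable in replicate 1, where their intervals overlapped, and were separate in replicate 2. Hist3h2a had 21.0 TPM in replicate 1 and 23.8 TPM in replicate 2, and Hist1h2ab had 14.6 TPM and 16.1 TPM. Of the other 13 H2A genes, Hist1h2ag, Hist2h2aa1, Hist1h2ak, Hist1h2ai, Hist1h2ah, Hist2h2ac, Hist1h2af and Hist1h2ac were at 1.61 to 15.9 TPM in both libraries. Hist1h2an, Hist1h2ao, Hist1h2ad, Hist1h2aa and Hist2h2ab were below 1 TPM in at least 1 library.

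The level of Hist1h2ap has to be read together with Hist1h2ao, its copy. The coding sequences of both genes are 393 bases long with 0 differences, and 93.1% of the 50-base windows of Hist1h2ap occur in another gene, mostly Hist1h2ao. The models differ at their ends: the model of Hist1h2ap starts 32 bases before the start codon and that of Hist1h2ao 2 bases before it, while Hist1h2ao runs 85 bases past the stop codon and Hist1h2ap 57 bases. Hist1h2ao was listed with 0 TPM in replicate 1 and 1.71 TPM in replicate 2. The sum of both genes was 1355 TPM in replicate 1 and 1439 TPM in replicate 2. This sum does not depend on how reads were divided between these 2 genes. The run of 12 A stands in both models, and a run of at least 12 A in the 200 bases after the stop codon was found in 243 of the 20915 other protein-coding genes, or 1.16%. The part of that run in the level was not tested.

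The 15 H2B genes summed to 111 ± 10.2 TPM. Hist1h2bc had 69.2 TPM in replicate 1 and 79.7 TPM in replicate 2, which was 66.8% of the H2B sum. Its reference model is spliced and holds no stem-loop match. Hist3h2ba followed with 11.6 TPM in replicate 1 and 11.8 TPM in replicate 2, and Hist1h2bk with 4.53 TPM in replicate 1 and 6.07 TPM in replicate 2. The order of these 3 genes was the same in both libraries, with no overlap of their intervals. From Hist1h2bk downward the order of neighbours changed between the libraries or their intervals overlapped. Hist1h2bj, Hist2h2be, Hist1h2bg, Hist1h2bn, Hist1h2bb, Hist1h2bf, Hist1h2be and Hist1h2bq lay between 1.00 and 5.04 TPM in both libraries. Hist1h2bl, listed at 0 in replicate 2, Hist1h2bp, Hist1h2br and Hist1h2ba did not reach 1 TPM in both.

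The 12 H3 genes summed to 98.9 ± 5.98 TPM. Hist1h3i had 47.0 TPM in replicate 1 and 52.6 TPM in replicate 2, Hist2h3b had 21.9 TPM in replicate 1 and 24.1 TPM in replicate 2, and Hist1h3d had 6.22 TPM in replicate 1 and 6.14 TPM in replicate 2. The 3 genes kept this order in both libraries. Hist1h3g, Hist1h3b, Hist1h3c, Hist2h3c2 and Hist1h3a were at 1.40 to 5.17 TPM, and Hist1h3e, Hist1h3f, Hist2h3c1 and Hist1h3h were below 1 TPM in at least 1 library. The 13 H4 genes summed to 200 ± 22.5 TPM, of which Hist1h4d alone gave 81.2%. Hist1h4d had 150 TPM in replicate 1 and 174 TPM in replicate 2, the second level among all members. Hist1h4n had 8.63 TPM in replicate 1 and 12.7 TPM in replicate 2, and Hist1h4i had 8.30 TPM in replicate 1 and 9.16 TPM in replicate 2, so these 2 genes were not separable beyond their intervals. Hist1h4c, Hist1h4h, Hist2h4 and Hist1h4b were at 1.64 to 7.70 TPM in both libraries, and Hist1h4j, Hist1h4k, Hist1h4f, Hist4h4, Hist1h4a and Hist1h4m were below 1 TPM in both.

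The 6 linker histone H1 genes summed to 63.0 ± 2.63 TPM, and no single gene led this type. Hist1h1c had 23.7 TPM in replicate 1 and 27.1 TPM in replicate 2, and Hist1h1e had 24.7 TPM in replicate 1 and 23.9 TPM in replicate 2. The order of these 2 genes changed between the libraries. Hist1h1b had 10.2 TPM in replicate 1 and 10.8 TPM in replicate 2, below both in each library. Hist1h1d and Hist1h1a stood at 1.43 ± 0.311 TPM and 1.34 ± 0.106 TPM.

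The sums by type thus stood in the order H2A, H4, H2B, H3 and H1 in both libraries. H2A reached 1591 ± 86.3 TPM with Hist1h2ap and 195 ± 28.1 TPM without it. Without Hist1h2ap, the H4 sum was 1.05 times the H2A sum in replicate 1 and 1.00 times in replicate 2, a difference smaller than the spread between the libraries. H4 was above H3 by 1.94 times in replicate 1 and 2.09 times in replicate 2, and above H2B by 1.77 times in replicate 1 and 1.82 times in replicate 2. H3 stood below H2B, at 0.909 times in replicate 1 and 0.870 times in replicate 2. The genes that were not found, Hist1h2bh, Hist1h2bm and Hist2h2bb, are all H2B genes. The H2B sum is therefore incomplete, which limits its ratios to H4 and H3. Between members of different types, windows of 50 bases were shared only by Hist1h2be and Hist1h1e, whose models overlap, so the division of reads among near-identical members of a type touches the type sums little. This does not cover genes that are no members, which hold 55.2% of the windows of Hist1h2ap and 79.7% of those of Hist2h3b. The effect of reads divided with such genes on the type sums was not tested.

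**Figure D2:**
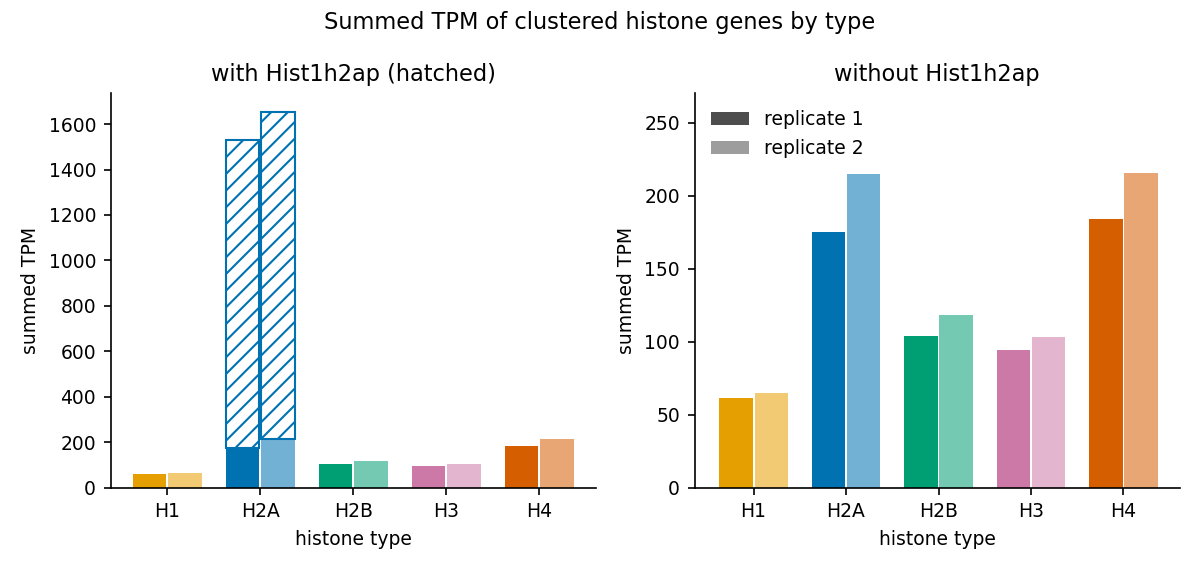
Summed TPM of the members of each histone type in replicate 1 (full colour) and replicate 2 (pale), with Hist1h2ap hatched on the left and left out on the right; the 2 panels have different axes, both from 0. Without Hist1h2ap, H2A and H4 stand at similar sums, about 195 and 200 TPM, above H2B, H3 and H1.

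Members of a type can encode one and the same protein. The 13 H4 genes encode 1 protein, through 12 different coding sequences. Among the H2A genes, 9 encode one protein that held 94.5% ± 0.780 of the H2A sum, Hist1h2ap included. Of the H3 genes, Hist1h3a, Hist1h3g, Hist1h3h and Hist1h3i encode the protein known as H3.1 and 8 genes encode H3.2, which differs at 1 residue. The H3.1 genes gave 56.6% of the H3 sum in replicate 1 and 58.5% in replicate 2, and the H3.2 genes gave 43.4% and 41.5%. Most of the H3.1 share came from Hist1h3i, and most of the H3.2 share from Hist2h3b. Other genes hold 87.6% of the 50-base windows of Hist1h3i, H3.2 genes among them, and 79.7% of those of Hist2h3b. The split between H3.1 and H3.2 thus depends on how reads were divided, and that part was not tested. In H2B, the protein shared by Hist1h2bc, Hist1h2be and Hist1h2bg held 70.4% ± 0.749 of the H2B sum. The H1 genes encode 6 different proteins.

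Members listed at 0 in both libraries were Hist1h4m, Hist1h2aa, Hist1h2ba and Hist2h2ab. Hist1h2aa and Hist1h2ba encode the testis histones TH2A and TH2B, and the testis linker histone gene Hist1h1t was close to 0, with 0.11 TPM in replicate 1 and 0.06 TPM in replicate 2 from 2 reads and 1 read. Hist1h1t has 0% and Hist1h2aa 2.35% of its windows in common with another gene, so few of their reads could have been given to a copy. For Hist1h2ba the share is 38.2% and for Hist2h2ab 21.0%. Hist1h4m is different: 89.8% of its windows are shared, its coding sequence has 0 differences from that of Hist1h4n, and the deposited interval of Hist1h4m reached up to 1.80 TPM in replicate 1 and 2.53 TPM in replicate 2.

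By cluster, the 52 Hist1 genes (chr13:21715763-23934851) summed to 1948 ± 115 TPM, and to 552 ± 57.2 TPM without Hist1h2ap. The 9 Hist2 genes (chr3:96219865-96269141) summed to 81.3 ± 10.0 TPM. Hist3h2a and Hist3h2ba (chr11:58948920-58956830) summed to 34.1 ± 2.13 TPM. The lone Hist4 member, Hist4h4 (chr6:136801553-136804415), had 0.09 TPM in replicate 1 and 0.29 TPM in replicate 2. Both Hist3 genes were above 10 TPM in each library, beside a median of 2.23 TPM over the Hist1 genes. Of the 50-base windows of Hist3h2a, 31.5% also occur in the gene Trim17. The part of reads of Trim17 in the level of Hist3h2a was not tested. Within Hist1 a gap of 1487374 bases separates 22 genes from 30 genes. The lower block without Hist1h2ap summed to 137 ± 14.7 TPM, led by Hist1h3i, and the upper block to 415 ± 42.5 TPM, led by Hist1h4d.

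**Figure D3:**
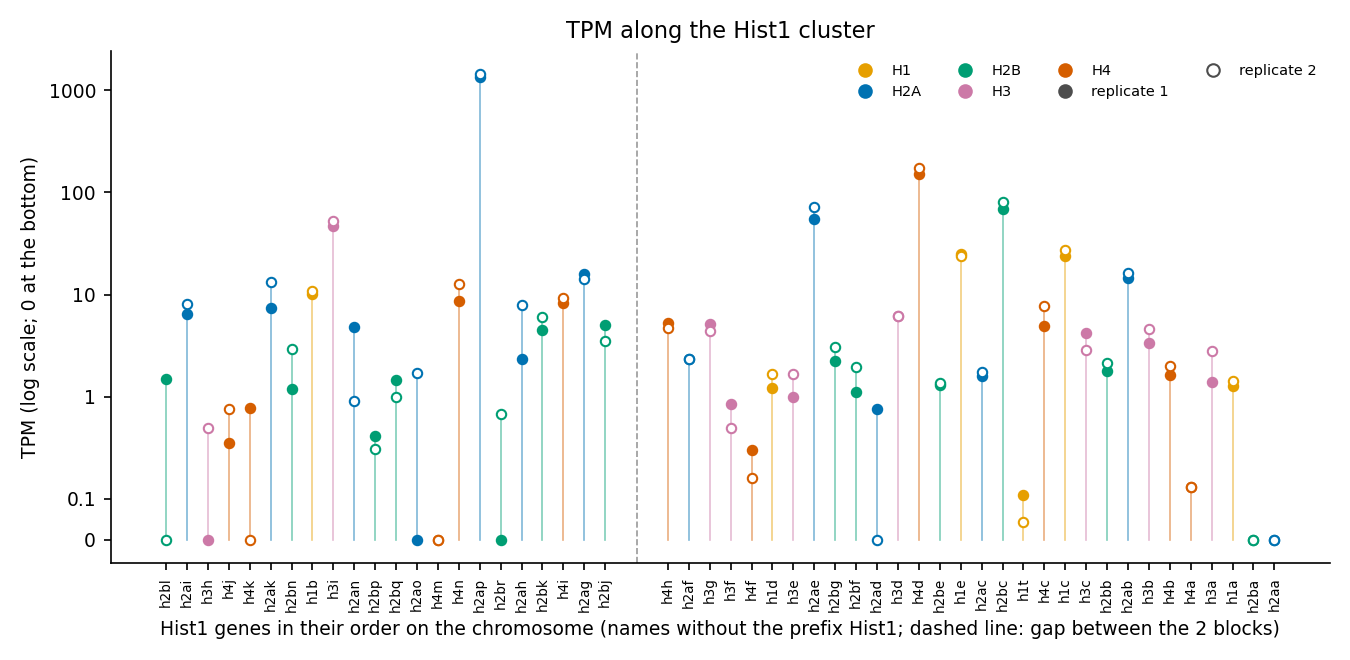
TPM (log axis) of the 52 Hist1 genes in their order on the chromosome, coloured by histone type, in replicate 1 (filled) and replicate 2 (open); the dashed line marks the gap between the 2 blocks. Hist1h2ap and Hist1h2ae stand next to Hist1h2br and Hist1h2bg, which were below 5 TPM, while Hist1h3h, Hist1h4j and Hist1h4k are neighbours that were all below 1 TPM.

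Neighbouring H2A and H2B genes often point away from each other and share one promoter region. There were 12 such head-to-head pairs, with 175 to 305 bases between the gene models. The partners were far apart in some pairs and close in others. Hist1h2ap had 1355 TPM in replicate 1 and 1437 TPM in replicate 2, while its partner Hist1h2br had 0 TPM in replicate 1 and 0.68 TPM in replicate 2. Hist1h2ae had 54.7 TPM and 71.7 TPM, beside 2.22 TPM and 3.05 TPM of Hist1h2bg. The other way round, Hist1h2ac had 1.61 TPM in replicate 1 and 1.75 TPM in replicate 2, beside 69.2 TPM and 79.7 TPM of its partner Hist1h2bc. Close pairs were Hist1h2ah and Hist1h2bk, with means of 5.12 and 5.30 TPM, and Hist2h2ac and Hist2h2be, with means of 3.89 and 3.42 TPM. H2A was the higher partner in both libraries in 7 pairs, in neither library in 3 pairs, of which Hist1h2aa and Hist1h2ba were both at 0, and in 1 library only in 2 pairs.

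Promoter sequences of 59 members were found in RefSeq (GRCm38.p6, 250 bases before to 50 bases after the start site), matched by older symbol and position. The letters CCAAT, read on either strand, were present in 47 of 47 promoters of types H1, H2A, H2B and H3, in 3 of 12 promoters of H4, and in 37.9% of 27025 promoters of all genes. The letters TATAAA were present in 59.3% of the member promoters and in 14.2% of all promoters. The octamer ATTTGCAT was present in 11 of 31 promoters of H2A and H2B, in 0 of 28 promoters of the other types, and in 1.75% of all promoters. The letters GGTCCG, chosen after the H4 promoters had been read, were present in 11 of 12 promoters of H4, in 1 of 47 promoters of the other types and in 8.39% of all promoters. Every motif was searched on both strands and counted on its own, although matches of different motifs can overlap. The windows of head-to-head partners also overlap, so the H2A and H2B promoters are not separate sequences throughout, and a match is a description of the sequence.

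The promoter of Hist1h2ap is shown because the promoter window of its copy, which was listed near 0, holds the same 200 letters. It holds 3 CCAAT, in capitals, on either strand (RefSeq, GRCm38.p6, chr13:21833526-21833725, minus strand, 5′ to 3′).
Hist1h2ap promoter: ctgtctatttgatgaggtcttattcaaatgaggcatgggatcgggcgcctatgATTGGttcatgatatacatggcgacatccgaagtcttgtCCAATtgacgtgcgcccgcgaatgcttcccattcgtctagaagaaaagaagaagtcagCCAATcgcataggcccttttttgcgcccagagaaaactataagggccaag
The promoter windows of Hist1h2ap and Hist1h2ao share these 200 bases without a difference, although RefSeq sets the start sites of the 2 genes at different distances from them. The windows of Hist1h2br and Hist1h2bq, the H2B partners of the same 2 copies, are identical over all 300 bases. The windows of Hist1h4n and Hist1h4m share 285 bases. Hist1h4n had 8.63 TPM in replicate 1 and 12.7 TPM in replicate 2, against 0 TPM of Hist1h4m in both. The coding sequences have 0 differences between Hist1h2ap and Hist1h2ao and between Hist1h4n and Hist1h4m. Other genes share 93.1% of the windows of Hist1h2ap and 89.8% of those of Hist1h4m. The listed levels of such copies thus depend on how reads were divided between them, and output per promoter was not tested.

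Histone genes outside the clusters, most of which are known to be expressed outside S phase as well and to give polyadenylated mRNA, served as a replication-independent list for comparison. H2afx is a mixed case, since its transcript also holds a stem-loop match, and it averaged 158 ± 3.85 TPM. The members of all types reached 0.555 times the sum of the 11 replication-independent genes in replicate 1 and 0.547 times in replicate 2, and 0.174 and 0.182 times without Hist1h2ap. In H3, the 12 members summed to 94.6 TPM in replicate 1 and 103 TPM in replicate 2, against 1917 TPM and 2141 TPM for H3f3a, H3f3b and Cenpa. H3f3a alone, which encodes H3.3, averaged 1316 ± 106 TPM. In H2A, the ratio was 1.03 ± 0.0150 with Hist1h2ap and 0.126 ± 0.00958 without it, against a list led by H2afz, the H2A.Z gene, at 954 ± 78.4 TPM. In H1, Hist1h1c, Hist1h1e and the other members reached 0.357 ± 0.00192 times the sum of H1f0 and H1fx. Apart from H2A with Hist1h2ap, where both sums lay within the spread between the libraries, these differences were many times that spread. The spread does not cover unequal uptake of stem-loop and polyadenylated mRNA into the libraries. The labels do not state how the first strand was primed, and the part of priming in these ratios was not tested.

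The list of histone RNA processing, transcription and chaperone genes was present: 18 of the 19 listed genes that matched reached 1 TPM in both libraries, with a median of 28.1 TPM. Slbp, the gene of the stem-loop binding protein, had 91.2 TPM in replicate 1 and 102 TPM in replicate 2. Nasp, a histone chaperone gene, had 67.8 TPM in replicate 1 and 71.6 TPM in replicate 2. Lsm11, a subunit gene of the U7 particle, had 5.30 TPM in replicate 1 and 5.96 TPM in replicate 2, and Npat, the transcription coactivator gene of the clusters, had 9.65 TPM and 9.78 TPM. Zfp473, the gene of a zinc finger protein of the U7 pathway, was the 1 gene below 1 TPM. All 15 S-phase genes were at 1 TPM or more, with a median of 81.7 TPM, and Rrm2, a ribonucleotide reductase subunit gene, had 193 TPM in replicate 1 and 215 TPM in replicate 2.

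Many members are close copies, and the counts show it. An estimated count that is not whole marks reads divided among features. With a tolerance of 0.005, 48 of the 54 members with reads in both libraries had non-whole counts in both, or 88.9%, beside 20.9% of the 16308 protein-coding genes with reads in both. All 14 H2A and all 11 H3 members with reads were of this kind. Whole counts in both libraries were found for Hist1h1a, Hist1h1b, Hist1h1t, Hist2h2be, Hist2h4 and Hist4h4. In the reference, 31 of 64 members had at least 50% of their 50-base windows in common with another gene, and 4 members had none. With windows of 100 bases, these counts were 25 and 7.

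**Figure D4:**
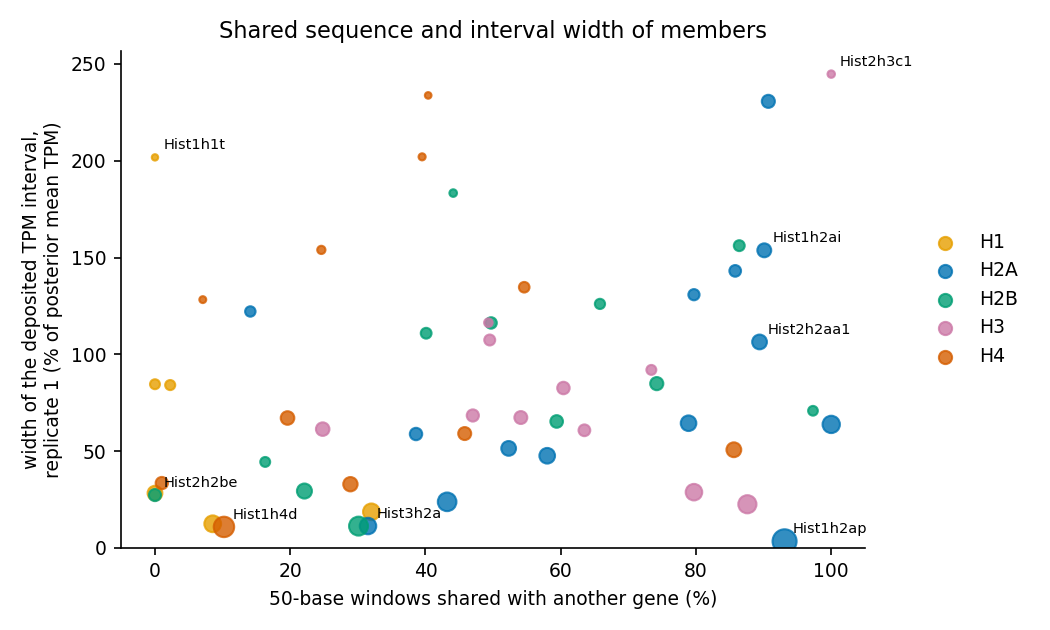
Width of the deposited TPM interval in replicate 1 (percent of the posterior mean TPM) against the share of 50-base windows that another gene holds, for the 54 members with reads in both libraries; colour gives the histone type and point size grows with TPM. Hist1h2ap lies at 93.1% shared windows with a width of 3.37%, while Hist2h2aa1, at 89.4% shared windows, has a width of 106%.

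Members with many shared windows differed in the width of their intervals. Hist2h2aa1, with 177 reads and 89.4% shared windows, had an interval of 6.35 to 19.9 TPM in replicate 1, a width of 106% of its posterior mean. Hist3h2ba, with 175 reads and 22.1% shared windows, had an interval of 9.73 to 13.1 TPM, a width of 29.3%. Other members showed no such gap: Hist2h3b, with 250 reads and 79.7% shared windows, had a width of 28.8%, close to the 27.3% of Hist2h2be, with 204 reads and 0% shared windows. These 4 genes were picked after their values were seen. Over all 64 members, the median width in replicate 1 was 106% in the 31 members with at least 50% shared windows. It was 68.4% in the other 33 members. The 2 sets were not matched by reads, and the part of sharing in the widths was not tested. Hist2h2aa1 and its copy Hist2h2aa2 together gave 39.3 TPM in replicate 1 and 48.8 TPM in replicate 2. All windows of Hist2h2aa2 and of Hist2h3c1 are also found in Gm20634, a gene model that overlaps the locus, so their level cannot be told apart from reads of that model. Another gene on the opposite strand overlaps 20 members, and on the same strand 6 members, for which reads of the overlap are uncertain as well.

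A poly(A) form was annotated for 26 members, taken as a reference transcript that ends more than 100 bases past the stem-loop or is spliced. When a poly(A) signal in the last 50 bases replaced the minimum of 100 bases, the count was 16. That count includes Hist1h4h, which ends 46 bases past the stem-loop and is not among the 26. Only 13 of the 26 were quantified with a model of that length, since the annotation behind the tables is an older one. These 13 summed to 74.5 TPM in replicate 1 and 83.8 TPM in replicate 2. They were led by Hist1h1c with 25.4 ± 2.40 TPM, Hist3h2a with 22.4 ± 1.96 TPM, Hist3h2ba with 11.7 ± 0.170 TPM and Hist1h4i with 8.73 ± 0.608 TPM. The transcript of Hist3h2a runs 1643 bases past the stem-loop and that of Hist1h1c 840 bases, and both hold the poly(A) signal AATAAA or ATTAAA in the last 50 bases, as do 50.2% of 58745 protein-coding transcripts. Hist2h4, whose transcript runs 1257 bases past the stem-loop, had 3.03 TPM in replicate 1 and 4.41 TPM in replicate 2.

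The other 13 of these 26 members were listed with a model of another length. Hist1h4d was quantified on 393 bases, while its reference transcript has 1138, and Hist1h2ae on 460 bases, against 704. Hist1h1e was quantified on 748 bases, against 1930. Where the listed model is the shorter one, reads past its end are not in the count. Hist1h4d, Hist1h2ae and Hist1h1e were the leading genes of this set with Hist1h2bc, at 736 bases listed against 1156. The rest of this set were Hist1h1d, Hist1h1t, Hist1h2ac, Hist1h2be, Hist1h2bg, Hist1h3d, Hist1h3f, Hist1h4c and Hist4h4, with means of 0.085 to 6.33 TPM. Hist4h4 was listed with the longer model, at 2879 bases against 2863. The spliced forms of Hist1h2be were listed at 2433 and 2408 bases, against 2506 and 2480, so long forms of both genes were quantified. Among the 13, the largest gap between models was that of Hist1h1d, with 744 bases listed and 7425 in the reference. The 37 members without an annotated poly(A) form, Hist1h2ap apart, summed to 226 TPM in replicate 1 and 262 TPM in replicate 2. An unspliced model without a stem-loop match was never called a poly(A) form, so some of these members were placed here by the rule. Examples are Hist2h2be, whose model of 2620 bases holds a poly(A) signal, and Hist1h3i, whose model ends at the stop codon.

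Where a long model is the only one listed, it holds 100% of the gene by construction, and the tables do not separate mRNA that ends at the stem-loop from longer mRNA. This applied to Hist1h1c, Hist1h3e, Hist1h4a, Hist1h4i, Hist1h4j, Hist2h3c1, Hist2h3c2, Hist2h4, Hist3h2a, Hist3h2ba and Hist4h4. More than 1 transcript was listed for 4 members. For Hist1h2bp, the spliced form held 0% in both libraries, and the form that ends 38 bases past the stem-loop held 100%. The gene itself had 0.41 TPM in replicate 1 and 0.31 TPM in replicate 2. Hist1h2be was listed with 3 transcripts, of which the unspliced one held 70.4% in replicate 1 and 82.1% in replicate 2. That unspliced transcript has 2099 bases, a poly(A) signal and no stem-loop match, so all 3 listed forms of Hist1h2be are long. Hist1h2bq had all of its 1.46 TPM in replicate 1 and 1.00 TPM in replicate 2 in 1 of 2 spliced transcripts, and Hist1h2br had 0 TPM in replicate 1 and 0.68 TPM in replicate 2. Hist1h2bq and Hist1h2br share 97.3% and 88.7% of their windows with other genes, mostly with each other.

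Genes of a fixed list of RNAs without a poly(A) tail were also looked up, and their levels differed widely. Rn7sk, the 7SK RNA gene, had 115 TPM in replicate 1 and 156 TPM in replicate 2, Rpph1, the RNase P RNA gene, had 40.5 TPM and 51.4 TPM, and Malat1, a nuclear RNA gene, had 4860 TPM and 5589 TPM. The others were lower: Neat1 had 8.25 TPM in replicate 1 and 7.30 TPM in replicate 2, and Rmrp had 1.30 TPM and 3.36 TPM. Terc had 0.11 TPM and 0 TPM. Of the 6 listed genes that matched, 5 reached 1 TPM in both libraries. How well RNA without a poly(A) tail was taken up into the libraries was not tested. The labels link the manual of a SMARTer Ultra Low RNA kit and do not state how the first strand was primed. How far the levels of stem-loop mRNAs depend on priming was not tested.

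Most well counted members differed little between the libraries. Of 29 members with a mean count of at least 50, 0 were at least 2-fold apart, beside 1.01% of 13766 genes. The median log2 ratio of replicate 1 over replicate 2 was -0.02 over these members and 0.00 over all genes, on scaled counts with 0.5 added. The quartiles were -0.29 and 0.11 over the members and -0.09 and 0.11 over all genes, which were not matched by count. With a mean count of at least 200, they were -0.16 and -0.01 over 11 members and -0.08 and 0.09 over all genes. Hist1h2ap had a log2 ratio of 0.06, Hist1h4d of -0.07 and Hist1h2bc of -0.06. The widest ratios were those of Hist1h2ak, at -0.71, Hist1h2bq, at 0.70, and Hist2h2aa1, at 0.68. For Hist2h2aa1 the copy Hist2h2aa2 stood at -0.44, in the opposite direction. Hist1h2bq and its copy Hist1h2br also went in opposite directions, and together had 86.6 reads in replicate 1 and 90.9 reads in replicate 2. When the minimum was a mean count of 10, 5 of 51 members were 2-fold apart, beside 4.21% of 17103 genes. These were Hist1h2ah, Hist1h2an, Hist1h2bn, Hist1h2br and Hist4h4, whose mean counts lay between 14.5 and 43.5 reads. Hist1h2an had 4.84 TPM in replicate 1 and 0.91 TPM in replicate 2, and Hist1h2ah had 2.33 TPM in replicate 1 and 7.91 TPM in replicate 2. Summed TPM was higher in replicate 2, but spike-ins held 11.1% of TPM in replicate 1 and 5.04% in replicate 2. Rescaled over protein-coding genes, the members summed to 2469 TPM in replicate 1 and 2554 TPM in replicate 2.

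**Figure D5:**
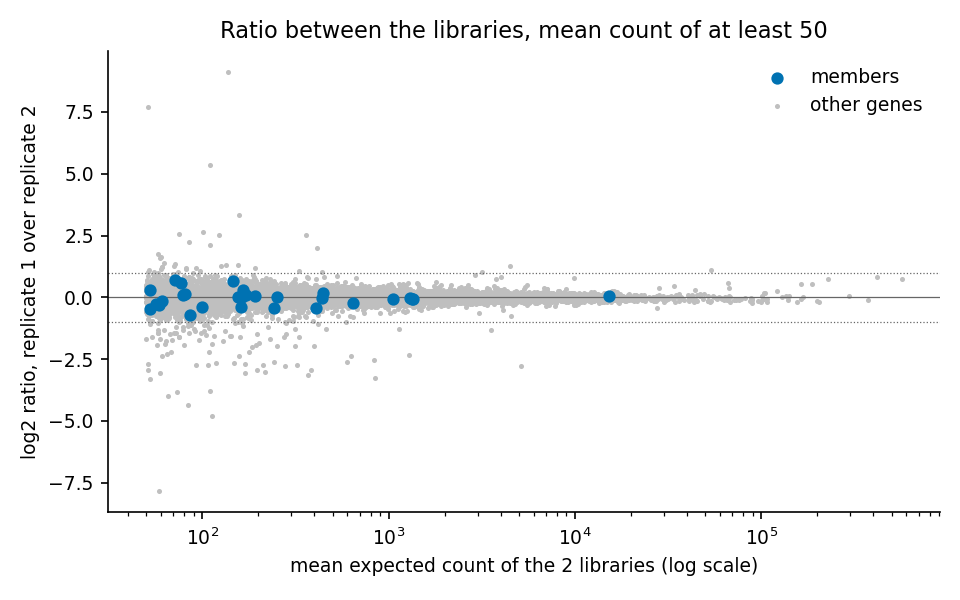
Log2 ratio of replicate 1 over replicate 2 against the mean expected count (log axis) for 13766 genes with a mean count of at least 50, with the 29 members in blue; dotted lines mark 2-fold. The members lie between -0.71 and 0.70, and the best counted members, Hist1h2ap, Hist1h4d and Hist1h2bc, lie near 0.

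The tissue label was checked against marker genes. All 8 heart markers were at 1 TPM or more in both libraries, and 0 of 6 brain markers. Summed erythroid markers were 36740 TPM in replicate 1 and 22265 TPM in replicate 2, mostly Hbb-y, while Klf1 and Gata1 of the same list were higher in replicate 2. Klf1 had 3.83 TPM in replicate 1 and 12.7 TPM in replicate 2, and Gata1 had 2.16 TPM and 4.80 TPM. All 6 erythroid and 6 of 8 liver markers were at 1 TPM or more in both libraries, and summed liver markers were 60.3 TPM and 385 TPM. The part of erythroid and liver RNA in the member levels was not tested.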

How the data were processed

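For each library, a deposited gene table and a deposited transcript table were used. The authors' expected counts are estimates of reads per feature on mm10 with annotation M4, per the deposited file descriptions, with no normalization. The deposited TPM values are per length and scaled to the same sum over all features, spike-ins included, per the file headers. The interval bounds of TPM are deposited as well and were treated as a score, since the file headers give no level. The deposited transcript percent gives how much of the TPM of its gene a transcript holds, per the file headers. Listed lengths exceed effective lengths by 99 bases. For aligner and quantifier, names were not given in the sources used here.

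Gene models, transcript sequences and overlaps came from GENCODE M21 (GRCm38). Stem-loops were searched in transcript sequence after the stop codon, and protein groups came from translated coding sequences, because no genome or protein table was used. Promoter sequences came from RefSeq. Expected counts were rounded and scaled with edgeR 4.0.16 (TMM) over genes without spike-ins, and DESeq2 1.42.0 factors were tried in place of these (R 4.3.3), and the ratio step was tested on simulated data. Python 3.11.15, pandas 2.3.3 and matplotlib 3.10.9 served for the rest. Named were the 3 highest members of each type, all members of Hist3 and Hist4, members with a poly(A) form, with more than 1 listed transcript or at 0 in both libraries, and genes of the fixed lists; other members were named after their values were seen. The members and lists were chosen with earlier results of these data known. The labels call the 2 libraries biological replicates but do not say which embryos went into each pool, so the SD may be partly technical.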

Additional observations from a re-analysis of the deposited data

How the results depend on the processing

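No paired analysis was possible because there was 1 group of 2 libraries. Rescaled over protein-coding genes without spike-ins, the sums were 2512 for all members, 76.7 for H1, 1936 for H2A, 135 for H2B, 120 for H3 and 243 for H4, and 2371, 98.8 and 41.5 for clusters Hist1, Hist2 and Hist3, in the same order as before. Without Hist1h2ap, an alternative chosen after seeing the data, the sums were 668 TPM for all members, 195 TPM for H2A and 552 TPM for cluster Hist1, and the ratios to replication-independent genes were 0.178 for all types and 0.126 for H2A. Over members with whole counts alone, the sums were 19.3 TPM in all, 11.9 TPM for H1, 3.42 TPM for H2B, 3.91 TPM for H4, 11.9 TPM for cluster Hist1 and 7.14 TPM for Hist2, the leading gene held 54.9%, and the ratios were 0.00513 for all types and 0.0675 for H1. By construction, this setting keeps 6 members; it left no H2A, no H3 and no Hist3 gene and fewer than 10 leading genes.

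With a minimum of 5 TPM, 20 members were detected, against 44, which is 31.3% of members beside 43.8% of protein-coding genes. The 10 leading genes held 90.5% of posterior mean TPM. Members 2-fold apart numbered 24 of 29 under spike-in totals, where 93.1% of all genes were 2-fold apart and the median of all genes shifted to -1.29 (log2), 5 of 51 with a mean count of at least 10 (4.21% of all genes), and 11 of 60 with no minimum (21.1% of all genes). The median log2 ratio of members was -1.31 under spike-in totals and -0.16 for deposited TPM, beside -1.29 and -0.15 over all genes. With a poly(A) signal in place of the minimum of 100 bases, poly(A) forms were found for 16 members. Posterior mean percents gave 22.0% to the spliced form of Hist1h2bp and 12.9% to the matched form of Hist1h2bq. The other 117 alternative values moved by less than 1 SD, by less than 1.5 times for counts, or by less than 0.1 for a median log2 ratio. With 2 libraries, a mean over 1 of them lies within 1 SD by construction, so leaving out a replicate says little about stability: the Hist4 sum was 0.29 TPM without replicate 1 and 0.09 TPM without replicate 2, against 0.19 TPM. Stem-loop matches in other protein-coding genes numbered 4, 14 and 29 with windows of 100 bases, of 1000 bases and with 1 mismatch, against 7, and members without a shared window numbered 7 with windows of 100 bases, against 4. Members with few reads are measured with wide intervals, such as a width of 84.5% for Hist1h1a with 20 reads in replicate 1.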
